A study of Mus musculus with 4 samples.

Results

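The 9 genes examined here encode transcription factors of retinal bipolar cells and of bipolar cell subtypes: Vsx1, Irx5, Irx6, Isl1, Lhx3, Lhx4, Bhlhe22, Bhlhe23 and Prdm8. They were chosen by name, with earlier results of these data known, and they make up 9 of the 21828 genes compared. Each of the 9 had a single row with status OK in all 4 libraries. RNA-seq was performed on retinas of postnatal day 12 (P12) mice whose background strain is labelled slc:ICR, which were dissociated and sorted by flow cytometry with an antibody to Cd73, a surface enzyme encoded by Nt5e that rod photoreceptors carry. Cd73-positive (Cd73P) cells are rods, and Cd73-negative (Cd73N) cells are the remaining retinal cells, bipolar cells among them. Both fractions came from wild-type (WT) littermate control retina and from Ezh2-cKO retina, in which floxed Ezh2 was recombined by DKK3-Cre, a Cre line active in retinal progenitors and not restricted to bipolar cells. Ezh2 is the histone H3 lysine methyltransferase of Polycomb complex PRC2. There was 1 library for each of the 4 groups, and how many retinas went into a P12 library is not given in the sources used here.

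Bipolar cells are the interneurons that carry the signals of rods and cones to amacrine and ganglion cells. ON bipolar cells respond to light through the receptor mGluR6, OFF cone bipolar cells through ionotropic glutamate receptors, and each class divides further into types that connect to different layers of the inner retina. Homeodomain and basic helix-loop-helix (bHLH) factors are switched on as postmitotic cells take up a type: Vsx1, Irx5 and Irx6 are known from cone bipolar types, Isl1 and Bhlhe23 from ON cone and rod bipolar cells, Bhlhe22 from OFF cone bipolar cells, and Prdm8 from rod bipolar cells. Lhx3 and Lhx4 are close relatives among the LIM homeodomain factors and also mark cone bipolar types.

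The sequences before the start sites are shown for 2 of the genes. Lhx3 is shown because it had the second lowest genotype ratio in Cd73N, and Isl1 because it was the highest of the 9 factors there. Each line is the 250 bases before the start site, 5′ to 3′ on the gene's strand, from mouse build mm9. The windows lie at chr2:26062077-26062326 (Lhx3) and chr13:117099897-117100146 (Isl1), both on the minus strand. Capitals mark TAATCC, the core bound by Otx2 and Crx.
Lhx3: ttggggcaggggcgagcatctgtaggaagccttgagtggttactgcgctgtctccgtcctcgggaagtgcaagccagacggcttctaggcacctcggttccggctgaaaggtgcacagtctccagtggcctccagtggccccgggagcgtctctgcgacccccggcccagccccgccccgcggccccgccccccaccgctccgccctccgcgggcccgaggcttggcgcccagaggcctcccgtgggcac
Isl1: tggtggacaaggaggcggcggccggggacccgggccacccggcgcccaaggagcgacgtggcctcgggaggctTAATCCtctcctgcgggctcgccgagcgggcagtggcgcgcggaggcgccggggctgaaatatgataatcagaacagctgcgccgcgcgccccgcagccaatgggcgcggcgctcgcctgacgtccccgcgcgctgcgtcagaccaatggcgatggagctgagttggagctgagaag

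Both promoters were searched on both strands, from 250 bases before to 50 bases after the start, for TAATCC, for TAATTA, a core bound by many homeodomain factors, and for CATATG, an E-box of the kind bound by Olig-type bHLH factors. The Isl1 window held TAATCC once, with no overlap with another motif, and neither of the other 2 motifs, and the Lhx3 window held none of the 3. Of 19948 protein-coding promoters of the same length, 6.62% held TAATCC, 4.37% TAATTA and 2.79% CATATG. The GC content was 72.0% for Lhx3 and 69.0% for Isl1. The median over the windows of all 9 factors was 66.3%, compared with 57.7% over all protein-coding promoters, and the ratio of observed to expected CpG dinucleotides was 0.685 against 0.623. A match describes letters only, and no binding was measured in these libraries.

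Values are FPKM, the number of sequenced fragments of a gene scaled to the length of its exons and to all mapped fragments of the library. Genotype and fraction ratios are log2 ratios of FPKM + 1, which understate the differences of genes near or below 1 FPKM. A gene was counted as higher or lower at a 1.5-fold difference, 0.58 on the log2 scale. With 1 library per group no difference has a replicate check and no test was possible. The ± values are counting standard errors (SE) from the deposited FPKM bounds. They cover counting error in a library only, and 13 of the 36 member values lay above their own upper bound, in which case the SE comes from an interval that does not hold the value.

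The library labels were checked first. Nt5e stood at 125 FPKM (WT) and 123 FPKM (Ezh2-cKO) in Cd73P, and at 0.844 and 0.609 FPKM in Cd73N. Ezh2 was 14.1 FPKM in Cd73N WT and 15.9 FPKM in the Cd73N library labelled Ezh2-cKO, which goes against the label, and 5.38 and 3.45 FPKM in Cd73P, although a value over the whole gene cannot show the loss of a floxed exon. Ezh2-cKO therefore stands for the label in all that follows. Xist was 52.2 and 240 FPKM in Cd73N and 47.0 and 95.6 FPKM in Cd73P, while the Y-linked gene Eif2s3y was 11.3 and 13.1 FPKM in the WT libraries and listed at 0 in both libraries labelled Ezh2-cKO, so that sex and genotype cannot be told apart. All 9 factors lie on autosomes. Relative depth, estimated from the bounds, was 0.995 to 1.17 times that of Cd73N WT, and absolute depth is unknown.

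In wild type, the 9 factors were genes of the Cd73N fraction. All 9 were higher in Cd73N than in Cd73P by more than 1.5-fold, as were 27.9% of all genes, with log2 ratios of Cd73P to Cd73N from -5.44 (Vsx1) to -1.77 (Prdm8) and a median of -4.48. In the libraries labelled Ezh2-cKO all 9 were again higher in Cd73N, against 29.1% of all genes, with a median of -4.01 and Prdm8 nearest to equality at -0.59. Prdm8 lost this call at 2-fold, with a pseudocount of 5 and under both scalings of the libraries, which left 8 of 9. Which genotype had the lower median depends on the added 1. With a pseudocount of 0.1 the medians were -5.11 in WT and -5.38 in Ezh2-cKO. Isl1 was the highest of the 9 in Cd73N WT, followed by Lhx4, Bhlhe23, Vsx1, Lhx3, Prdm8, Irx6, Bhlhe22 and Irx5. Lhx4 and Bhlhe23, at 99.0 and 98.7 FPKM, did not differ beyond counting error, and the other neighbours did.

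**Figure D1:**
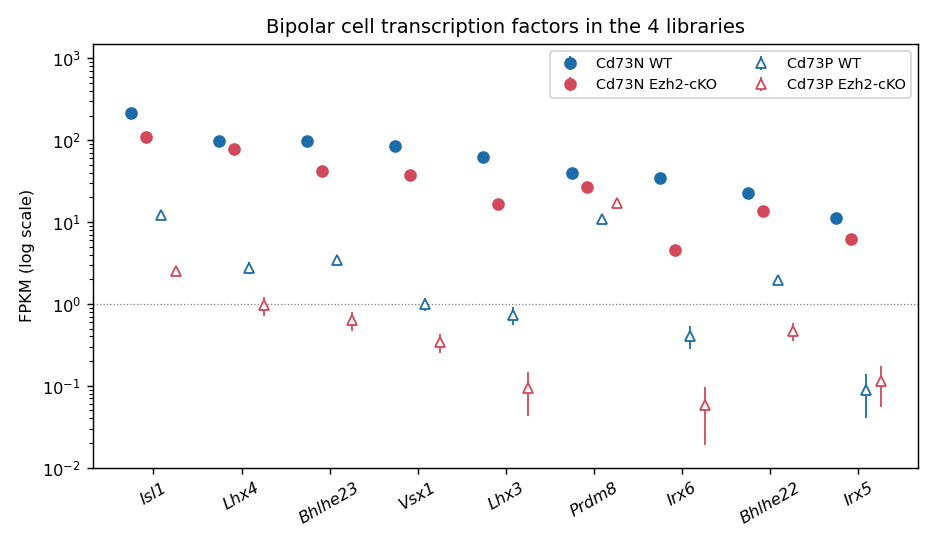
FPKM of the 9 transcription factors (log axis) in the Cd73N (circles) and Cd73P (triangles) libraries of WT (blue) and Ezh2-cKO (red), ordered by the Cd73N WT level, with 1 library per point and bars of 1.96 counting SE. Cd73N circles lie between 4.61 and 216.5 FPKM, the red circle is under the blue one for every gene, and Prdm8 is the one factor that stays above 10 FPKM in both Cd73P libraries.

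In Cd73N, 7 of the 9 factors were lower in Ezh2-cKO than in WT, where 1.71% of all genes were lower, or 3.64% of the 6865 genes that reached 10 FPKM in 1 of the 2 libraries, a limit chosen after the values were seen. The other 2, Prdm8 and Lhx4, were also below their WT value but within 1.5-fold. None of the 9 was higher, against 7.18% of all genes. The median log2 ratio of the 9 was -0.98, compared with 0 over all genes. In bulk samples, fewer cells of a type and less RNA per cell cannot be told apart.

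The Iroquois homeodomain factors Irx5 and Irx6 lie in 1 gene cluster on chromosome 8 together with Irx3. Irx6 (chr8:95198301-95203979) stood at 34.7 FPKM in Cd73N WT and 4.61 FPKM in Cd73N Ezh2-cKO, and at 0.405 (WT) and 0.0580 FPKM (Ezh2-cKO) in Cd73P. In Cd73N its FPKM was thus 7.52 times lower with the Ezh2-cKO label than in WT. The log2 ratio of -2.67 ± 0.067 was the lowest of the 9. Irx5 (chr8:94881695-94885355) was 11.2 FPKM in Cd73N WT and 6.27 FPKM in Cd73N Ezh2-cKO (log2 ratio -0.75 ± 0.076), and under 0.2 FPKM in both Cd73P libraries.

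In Cd73N the log2 ratio of Irx6 was 1.92 below that of its neighbour Irx5 (95% counting interval -2.12 to -1.72). The third gene of the cluster, Irx3, went from 5.75 to 3.31 FPKM, a ratio of -0.65 ± 0.098, and did not differ from Irx5 beyond counting error (Irx5 minus Irx3 -0.10, interval -0.35 to 0.14). Thus Irx6 was the higher of Irx5 and Irx6 in Cd73N WT and the lower of them in the library labelled Ezh2-cKO. The gap between Irx5 and Irx6 is 313 kb and that between Irx3 and Irx5 is 556 kb. Of the 36-base words in their transcripts, 2.03% of those of Irx5 and 2.11% of those of Irx6 also occur in other Iroquois genes, so a small share of the reads could map to more than 1 of them. The other Iroquois genes Irx1, Irx2 and Irx4 were all under 0.3 FPKM in every library.

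Vsx1 (chr2:150506440-150514873), a paired-type homeodomain factor needed for the late differentiation of OFF cone bipolar cells, stood at 85.5 FPKM in Cd73N WT and 37.5 FPKM in Cd73N Ezh2-cKO, a ratio of -1.17 ± 0.029. It was 0.998 and 0.338 FPKM in the Cd73P libraries. Both Cd73P values were thus about 1% of the Cd73N value of the same genotype.

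Isl1, Lhx3 and Lhx4 are LIM homeodomain factors. Isl1 (chr13:117088478-117099896), required for the survival and maturation of ON and rod bipolar cells, was 216.5 FPKM in Cd73N WT and 109 FPKM in Cd73N Ezh2-cKO, and 12.3 and 2.52 FPKM in the Cd73P libraries. Its level was thus lower in both libraries labelled Ezh2-cKO, by 1.99 times in Cd73N (log2 ratio -0.98 ± 0.019) and by 4.88 times in Cd73P (-1.92 ± 0.087).

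Isl1 is also made by starburst amacrine and ganglion cells. The starburst genes Chat, Slc18a3 and Slc5a7 were at most 0.0326 FPKM in every library, while the other 2 genes of that list, Sox2 and Megf10, which Müller glia also express, went from 12.1 to 55.3 FPKM and from 3.21 to 13.05 FPKM in Cd73N. Of the ganglion cell factors Pou4f1, Pou4f2 and Pou4f3, none was above 0.581 FPKM in any library. The summed level of the 10 ganglion cell genes listed went from 17.3 to 44.2 FPKM in Cd73N, most of it through Thy1 at 6.52 and 30.3 FPKM. Of the 6 that reached 1 FPKM, 2 were higher (Thy1 and Slc17a6) and 1 was lower, Sncg at 2.04 and 0.682 FPKM.

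Lhx3 (chr2:26055732-26062076) stood at 62.9 FPKM in Cd73N WT and 16.6 FPKM in Cd73N Ezh2-cKO, and its paralogue Lhx4 (chr1:157548824-157589157) at 99.0 and 77.6 FPKM. The ratios were -1.86 ± 0.046 for Lhx3 and -0.35 ± 0.032 for Lhx4, the second lowest and the highest of the 9. Lhx3 was 1.51 below Lhx4 on the log2 scale (counting interval -1.62 to -1.40). In Cd73P, Lhx3 was 0.739 and 0.0945 FPKM and Lhx4 2.76 and 0.970 FPKM, and there the ratios of -0.67 ± 0.087 and -0.93 ± 0.13 did not differ beyond counting error (Lhx3 minus Lhx4 0.27, interval -0.04 to 0.57).

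Of 9 other LIM homeodomain genes, 3 reached 1 FPKM in Cd73N, of which 2 were higher in Ezh2-cKO and none lower. Lhx2, a factor of progenitors and Müller glia, went from 14.3 to 32.4 FPKM (1.13 ± 0.055), and Lhx9 from 0.749 to 4.06 FPKM (1.53 ± 0.090). Among 6 cofactor genes of LIM proteins none passed 1.5-fold in Cd73N. Lmo4, the highest of them in Cd73N, went from 168 to 130 FPKM there (-0.38 ± 0.028), and from 7.06 to 2.74 FPKM in Cd73P (-1.11 ± 0.11). Lmo1, a gene of the rod fraction, was 2.88 and 1.70 FPKM in Cd73N and 37.9 and 50.6 FPKM in Cd73P. In Cd73P 1 of 5 cofactor genes was higher and 1 lower, and of the other LIM homeodomain genes 1 of 2 was lower and none higher.

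Bhlhe22 and Bhlhe23 are Olig-type bHLH repressors. Bhlhe23 (chr2:180509086-180511605), which rod bipolar cells need to mature, was 98.7 FPKM in Cd73N WT and 42.3 FPKM in Cd73N Ezh2-cKO, and 3.47 and 0.636 FPKM in Cd73P. Bhlhe22 (chr3:17954325-17957514) was 22.8 and 13.8 FPKM in Cd73N, and 1.98 and 0.472 FPKM in Cd73P. Both genes were lower in the Ezh2-cKO library of each fraction, with ratios of -1.20 ± 0.030 and -1.45 ± 0.10 for Bhlhe23 and of -0.68 ± 0.048 and -1.02 ± 0.092 for Bhlhe22.

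The ratio of Bhlhe23 was 0.52 below that of Bhlhe22 in Cd73N (interval of the difference -0.63 to -0.41) and 0.43 below it in Cd73P (-0.70 to -0.17). Of 6 other bHLH genes listed, not all of them Olig-type, 3 reached 1 FPKM in Cd73N. Of these 2 were higher in Ezh2-cKO and none lower. Bhlhe40, a more distant bHLH repressor of the circadian clock, went from 5.12 to 33.5 FPKM in Cd73N (2.50 ± 0.058). The other higher gene, Olig3, was low, at 0.0142 and 1.83 FPKM. Bhlhe41 went from 7.69 to 10.9 FPKM (0.46 ± 0.090), within 1.5-fold. A non-coding transcript on the same strand overlaps Bhlhe23 in the annotation, so reads could be shared between them.

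Prdm8 (chr5:98609888-98616467) belongs to the PR domain family of histone methyltransferase-like proteins. It stood at 39.6 FPKM in Cd73N WT, 26.5 FPKM in Cd73N Ezh2-cKO, 10.9 FPKM in Cd73P WT and 17.3 FPKM in Cd73P Ezh2-cKO. The Cd73N ratio was -0.56 ± 0.036, just inside 1.5-fold, and the Cd73P ratio was 0.62 ± 0.056, just past it. Prdm8 thus held the fraction difference least: in Cd73P it reached 27.5% of its Cd73N value in WT and 65.1% in Ezh2-cKO. Of the 13 other Prdm genes, 8 reached 1 FPKM in Cd73N and 6 in Cd73P, and none of them passed 1.5-fold in either direction. A pseudogene on the other strand overlaps Prdm8, and whether the counting used strand is not given in the sources used here.

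**Figure D2:**
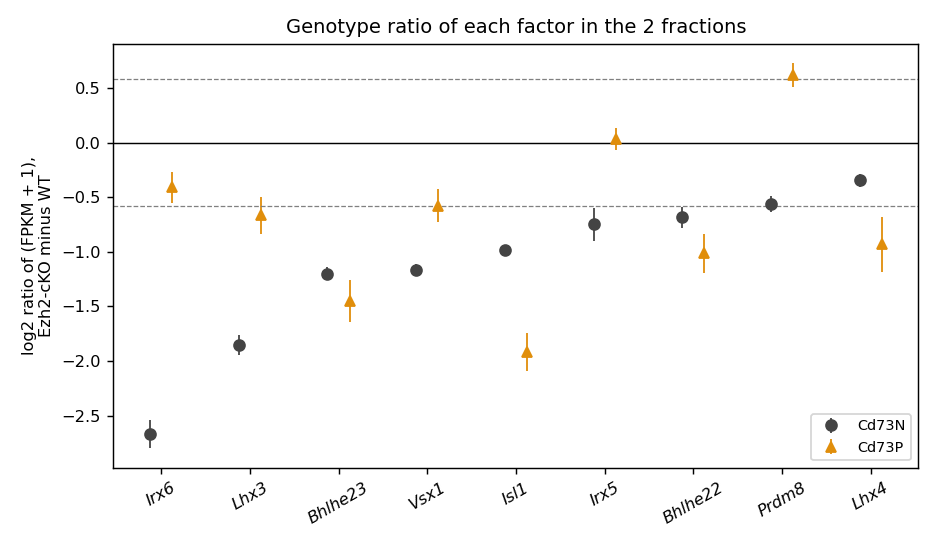
Log2 ratio of FPKM + 1, Ezh2-cKO to WT, of each factor in Cd73N (circles) and Cd73P (triangles), ordered by the Cd73N ratio, with 1 library per group, bars of 1.96 counting SE and dashed lines at 1.5-fold. The Cd73N ratios run from -2.67 for Irx6 to -0.35 for Lhx4, all below 0, while Prdm8 and Irx5 lie above 0 in Cd73P at 0.62 and 0.03.

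The order of the Cd73N ratios was Irx6, Lhx3, Bhlhe23, Vsx1, Isl1, Irx5, Bhlhe22, Prdm8 and Lhx4, from the lowest. Bhlhe23 and Vsx1 did not differ beyond counting error (difference 0.03, interval -0.05 to 0.12), and nor did Irx5 and Bhlhe22 (0.07, interval -0.11 to 0.24). All other neighbours in that order did. The summed level of the 9 factors in Cd73N was 670.9 FPKM in WT and 334.4 FPKM in Ezh2-cKO. Isl1 held a near-equal share of that sum in both, 32.3% and 32.6%, whereas Lhx4 went from 14.8% to 23.2%, Lhx3 from 9.37% to 4.98% and Irx6 from 5.17% to 1.38%.

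The factors were set beside other bipolar cell genes in the same libraries, given as counts and medians over genes that reached 1 FPKM in Cd73N. Of 9 pan-bipolar genes, 4 were lower in Ezh2-cKO and none higher, with a median of -0.56. The calcium-binding protein genes Scgn and Cabp2 went from 501 to 191 FPKM (-1.39 ± 0.018) and from 42.9 to 19.3 FPKM (-1.11 ± 0.075). Gabrr1, a GABA-C receptor subunit gene, went from 199 to 106 FPKM (-0.90 ± 0.021). Of 12 genes of the ON bipolar cascade 4 were lower and none higher, with a median of -0.43. Grm6, which encodes mGluR6, went from 120 to 64.3 FPKM (-0.89 ± 0.020), Pcp2, a G-protein modulator gene of ON bipolar cells, from 653 to 336 FPKM (-0.96 ± 0.032), and Nyx, which encodes nyctalopin at ON bipolar dendrites, from 16.9 to 9.83 FPKM (-0.73 ± 0.052).

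The lists of bipolar classes, which the factors help to set, differed in their counts. Of 10 OFF cone bipolar genes 5 were lower and none higher, with a median of -0.47. Those 5 lay apart from the rest of the list: the neurokinin receptor gene Tacr3 went from 16.5 to 3.17 FPKM (-2.07 ± 0.065), the kainate receptor partner Neto1 from 8.74 to 2.49 FPKM (-1.48 ± 0.076) and the channel gene Hcn4 from 10.5 to 4.39 FPKM (-1.10 ± 0.071), with Syt2 and Erbb4 at -0.91 and -0.78, while Grik1, Prkar2b, Kcnip3, Nnat and Chrm2 ranged from -0.15 to 0.03.

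Of 6 ON cone bipolar genes 2 were lower, Cpne9 from 9.99 to 5.04 FPKM and Slitrk5 from 6.44 to 3.10 FPKM (both -0.86), and the median was -0.36. The neuropeptide gene Cck of the same list went from 10.0004 to 15.04 FPKM (0.54 ± 0.11). Of 5 rod bipolar genes none was lower and 1 was higher, at 0.62, with a median of -0.20. Car8 went from 16.4 to 21.2 FPKM (0.36 ± 0.036) and the homeodomain factor Sebox from 24.4 to 17.6 FPKM (-0.45 ± 0.070). Whether the lists differ from each other was not tested.

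**Figure D3:**
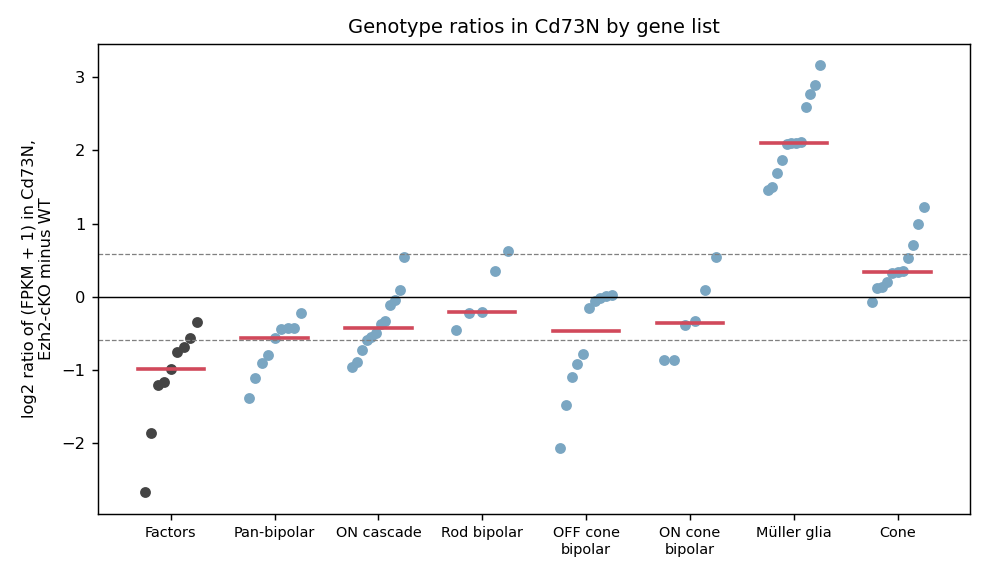
Log2 ratio of FPKM + 1 in Cd73N, Ezh2-cKO to WT, with 1 point per gene that reached 1 FPKM in 1 of the 2 libraries, red lines at list medians and dashed lines at 1.5-fold. The 9 factors have a median of -0.98 and all lie below 0, the 5 bipolar lists plotted have medians from -0.56 to -0.20, and Müller glia genes have a median of 2.102.

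Over the 21 pan-bipolar and ON cascade genes together the median ratio in Cd73N was -0.49. Irx6 was 2.17 and Lhx3 1.36 below that median, Bhlhe23 0.71, Vsx1 0.67, Isl1 0.49, Irx5 0.25, Bhlhe22 0.19 and Prdm8 0.07 below it, while Lhx4 was 0.15 above it. In Cd73P the same median was -1.32 over 19 genes. There Isl1 lay 0.60 and Bhlhe23 0.13 below it and the other 7 factors lay above it, by 0.31 (Bhlhe22) to 1.94 (Prdm8), although all of these except Prdm8 were below 3 FPKM in both libraries, where the added 1 draws ratios towards 0.

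Earlier fate factors of the bipolar lineage did not differ in a single direction in Cd73N. Of 12 such genes 3 were higher and 1 lower in Ezh2-cKO, with a median of -0.17. Otx2, which drives photoreceptor and bipolar fates, went from 388 to 224 FPKM (-0.79 ± 0.017). Rax, which is shared with progenitors and Müller glia, went from 39.4 to 95.4 FPKM (1.26 ± 0.038), and Pax6, which amacrine cells also express, from 20.4 to 63.5 FPKM (1.59 ± 0.040).

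Markers of other cell types also differed with genotype in the same libraries. All 12 Müller glia genes listed were higher in Cd73N Ezh2-cKO, with a median of 2.102 and a summed level of 1123 FPKM in WT and 5738 FPKM in Ezh2-cKO, or 0.275% and 1.56% of the FPKM total, and Apoe and Glul went from 357 to 1532 FPKM and from 257 to 1760 FPKM. Of 11 cone genes 3 were higher and none lower, with a median of 0.34 and a summed level of 3827 and 5373 FPKM. Of 10 rod genes 6 were lower with a median of -0.87, although the summed level was 1355 and 1433 FPKM, with Sag at 389 and 462 FPKM. Of 6 amacrine genes that reached 1 FPKM 3 were higher and none lower, and the sum over the 7 analysed here was 45.6 and 122.9 FPKM. The horizontal cell list summed to 94.0 and 63.8 FPKM, nearly all of it Prox1 at 92.7 and 61.9 FPKM, which bipolar cells also express. The part of cell composition in the ratios of the 9 factors was not tested.

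In Cd73P, 5 of the 9 factors were lower in Ezh2-cKO (Isl1, Lhx3, Lhx4, Bhlhe22 and Bhlhe23), where 2.39% of all genes were lower. Prdm8 was the single factor that was higher, against 2.26% of all genes, and Vsx1, Irx5 and Irx6 did not pass 1.5-fold. Vsx1, at -0.578, was just inside the limit of 0.585. Vsx1 and Irx6, like Lhx3, were under 1 FPKM in both libraries, where the added 1 draws ratios towards 0. In FPKM itself Vsx1 was 2.95 times and Irx6 6.99 times lower in Ezh2-cKO. The median over all 9 was -0.67. For the other lists only genes that reached 1 FPKM in 1 of the 2 libraries were used. Of the factors 5 did so, with a median of -1.02, 4 of them lower and 1 higher. Lhx4, Bhlhe22 and Bhlhe23 reached 1 FPKM only in WT, at 2.76, 1.98 and 3.47 FPKM, so for them the filter itself favours a lower ratio. The same holds for genes of the other lists that reached 1 FPKM in WT alone. For Irx5, at 0.0891 and 0.115 FPKM, the deposited bounds of the 2 libraries overlapped. The largest Cd73P values were those of Isl1 and Prdm8: Isl1 was above Prdm8 in WT, at 12.3 and 10.9 FPKM, and far below it in Ezh2-cKO, at 2.52 and 17.3 FPKM. The sum over the 9 factors was 33.6 FPKM in Cd73P WT and 22.5 FPKM in Cd73P Ezh2-cKO, of which Prdm8 held 32.4% and 76.8%.

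Isl1, Lhx3, Bhlhe22 and Bhlhe23, 4 of the 9, were lower in both fractions, where 0.424% of all genes were. This set depends on the added 1. With a pseudocount of 0.1, Vsx1 and Irx6 also passed 1.5-fold in Cd73P, at -1.33 and -1.68. Many other bipolar genes were lower in Cd73P as well: 8 of 9 pan-bipolar genes with a median of -1.48, 9 of 10 ON cascade genes with a median of -1.21 and 3 of 5 rod bipolar genes with a median of -0.98. Among OFF cone bipolar genes 2 of 3 were lower (median -0.67), among ON cone bipolar genes 0 of 2 (-0.18) and among the fate factors 3 of 10 (-0.28). Cone genes, which rods do not express at high levels, were lower in 7 of 10, with a median of -0.80 and a summed level of 275 FPKM in WT and 138 FPKM in Ezh2-cKO. Müller glia genes were higher in 8 of 10, with a median of 0.95 and sums of 117 and 243 FPKM, and rod genes were higher in 2 of 9 with none lower. The part of other cells carried into the Cd73P sort was not tested.

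The level of each factor in Cd73P as a percent of that in Cd73N gives a measure within a genotype. In WT it was 0.794% to 8.67% for 8 of the factors and 27.5% for Prdm8, with a median of 2.79% over the 9. In Ezh2-cKO it was 0.568% to 3.42% for the same 8 and 65.1% for Prdm8, with a median of 1.501%. The percent was lower in Ezh2-cKO for Vsx1, Isl1, Lhx3, Lhx4, Bhlhe22 and Bhlhe23, for example 5.68% and 2.31% for Isl1, and higher for Irx5, Irx6 and Prdm8. The medians of other lists were 4.21% in WT and 1.94% in Ezh2-cKO for pan-bipolar genes, 9.64% and 3.33% for the ON cascade, 6.65% and 2.22% for cones and 7.33% and 3.64% for Müller glia, so that these 4 lists were also lower in Ezh2-cKO. The medians of ON cone bipolar genes, 2.38% and 2.83%, and of the fate factors, 34.3% and 46.7%, were higher there.

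**Figure D4:**
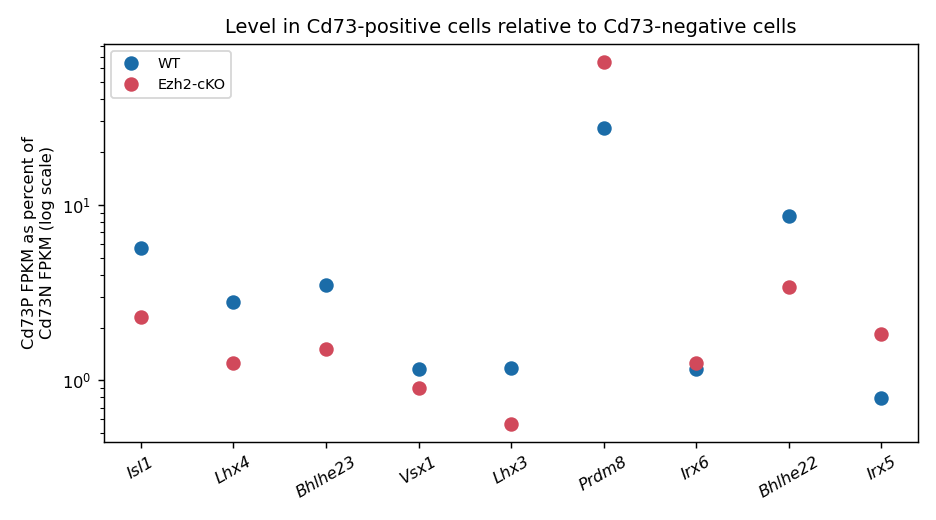
Cd73P FPKM as a percent of Cd73N FPKM (log axis) for each factor in WT (blue) and Ezh2-cKO (red), ordered as in the plot of levels, 1 pair of libraries per point. Prdm8 lies at 27.5% and 65.1%, and the other 8 factors lie at 8.67% or less.

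Prdm8 was not alone in a high Cd73P level among the genes of the bipolar lists. Of 51 other bipolar genes listed, 8 had a WT value in Cd73P of at least 25% of that in Cd73N, a limit chosen after the values were seen. These were Otx2, Prdm1, Rax, Crx and Neurod1, which photoreceptors express, and Sebox, Lrit3 and Prkca. Unlike Prdm8, the genes Prdm1, Rax, Crx, Neurod1 and Lrit3 were higher in Cd73P than in Cd73N in WT. Sebox was 11.5 and 15.7 FPKM in Cd73P WT and Ezh2-cKO, Lrit3 19.9 and 28.7 FPKM and Prkca 26.8 and 29.7 FPKM, with log2 ratios of 0.42, 0.51 and 0.14, none of which passed 1.5-fold.

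The genes whose values over the 4 libraries lay nearest to the median profile of the 9 factors, among 9878 genes, were A730046J19Rik (distance 0.277 on the log2 scale), Gstm7 (0.387), Tmem65 (0.390), Arhgdig (0.395) and Uchl1 (0.432). A730046J19Rik was 40.8, 15.1, 0.856 and 0.154 FPKM in Cd73N WT, Cd73N Ezh2-cKO, Cd73P WT and Cd73P Ezh2-cKO. Uchl1, a neuronal ubiquitin hydrolase gene, was 164, 95.4, 8.69 and 4.12 FPKM in the same order. The factors themselves lay at distances from 0.534 (Bhlhe23) to 3.26 (Prdm8) from their own median profile, so that Bhlhe23 was the most and Prdm8 the least typical of the 9.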

How the data were processed

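Sorted Cd73N and Cd73P cells of P12 retina were analysed by RNA-seq, with 1 library for each of 4 groups, grouped by sample title. Per the study's methods, the authors mapped 36-base reads to mm9, allowing up to 50 hits per read, and deposited FPKM per gene with a lower and an upper bound and a status. The submitters' processing notes name bcl2fastq 1.8.4, TopHat2 2.0.8b and Cufflinks 2.1.1. FPKM keep no read totals, so depth is unknown, and libraries were not scaled to each other.

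Rows sharing a symbol were summed (235 symbols), 730 small RNA symbols were left out, and 21828 genes remained. Ratios were log2(FPKM + 1), with a status of OK required in both libraries. The bound width was taken as 4 SE. Lists other than the members were summarised over genes reaching FPKM 1 in either library. Python 3.11.15, numpy 2.4.6, pandas 2.3.3 and matplotlib 3.10.9 were used, and the counting script was tested on simulated data. Promoters were read from the mm9 genome at the deposited start, with strand from GENCODE on that build.

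The members and lists were chosen with earlier results of these data known. All members were named. Also named were, in each bipolar list, the 3 largest absolute Cd73N ratios at FPKM of at least 5, the 2 highest genes of each other list and the 5 nearest profiles. Some genes and sequences are not reported here. Other genes named, such as Syt2, Lrit3, the Pou4f genes and the starburst genes, were chosen after their values were seen. Alternatives were pseudocounts of 0.1 and 5, 2 scalings, a 2-fold threshold, filters on low values and ratios without a pseudocount.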

Additional observations from a re-analysis of the deposited data

Results flagged for a closer look

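For Prdm8 and Irx5 the genotype ratio had opposite signs in the 2 fractions, and with 1 library per group neither difference was tested. The share of all genes with opposite signs is not given, so this only describes these genes. For Prdm8 the log2 ratios were -0.56 (Cd73N) and 0.62 (Cd73P), which differ by 1.18. For Irx5 they were -0.75 and 0.03, which differ by 0.783, but in Cd73P both values were under 0.2 FPKM and their bounds overlapped, so no direction can be read there at this depth. Groups of 1 library could not be examined for outlying samples.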

How the results depend on the processing

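Of 194 member ratios under alternative settings none changed sign, 90 stayed within counting error and 104 moved beyond it. The 90 include every ratio under the filter of 1 FPKM in either library, which keeps or drops a gene and cannot change its ratio. Of 64 member counts 55 stayed within 1.5 times, among them counts of 0 that stayed 0. The count of factors lower in Cd73N Ezh2-cKO, 7 at 1.5-fold, was 4 at 2-fold, 5 with a pseudocount of 5 and 6 with scaling by the FPKM sum. The count lower in Cd73P, 5, was 3 at 2-fold, 2 with a pseudocount of 5 and 1 without a pseudocount among genes of at least 1 FPKM in both libraries. Other settings raised the count lower in Cd73P, to 7 with a pseudocount of 0.1 and to 6 with either scaling. The 1 higher factor there, Prdm8, was 0 at 2-fold, with a pseudocount of 5 and with sum scaling, and its ratio ranged from 0.49 to 0.66 over pseudocounts and scalings. Without a pseudocount, among genes reaching FPKM 1 in both libraries, 5 factors in WT and 2 in Ezh2-cKO could be counted as higher in Cd73N, since fewer were compared. With a pseudocount of 0.1, Irx6, Lhx3 and Bhlhe22 in Cd73P lay below the median of the other bipolar genes instead of above it. They lay at -0.00036, -0.43 and -0.18 from that median. With a pseudocount of 5, Bhlhe23 lay 0.36 above it instead of below it. These factors were at most 3.47 FPKM in Cd73P, where the pseudocount weighs on the ratio. The median of the ganglion list in Cd73P was 0.59 over the 1 gene that reached 1 FPKM and -0.13 over all listed genes. With median-ratio scaling, the log2 scale factors of the 2 genotypes differ by 0.08 in Cd73N and 0.04 in Cd73P. With sum scaling they differ by 0.15 and -0.06, and between fractions by 0.21 to 0.42 over both scalings. Ratios of FPKM + 1 shift by less than this or the other way where FPKM is low. For example, Lhx3 in Cd73P went from -0.67 to -0.71 with median-ratio scaling. No paired analysis was possible because each group has 1 library, and no library could be left out. In Cd73P only 5 of the 9 factors reached 1 FPKM in either library, and counting error there is larger than in Cd73N for most of them.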
